A study of Arabidopsis thaliana with 36 samples.

Results

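Cuticular wax and the very-long-chain fatty acids it is made from were followed through 10 genes in the RNA of Arabidopsis thaliana seedlings given low red to far-red light (low R/FR, simulated shade) or left in high R/FR white light. The genes are 6 of the KCS family (KCS1, AT1G01120; KCS2, AT1G04220; KCS5, AT1G25450; KCS6, AT1G68530; KCS10, AT2G26250; KCS20, AT5G43760), the reductase gene KCR1 (AT1G67730), and CER1 (AT1G02205), CER2 (AT4G24510) and CER3 (AT5G57800). They were chosen by gene name from the deposited count table, in which they are 10 of 33602 genes, and all 10 had enough counts to be tested. The choice applies no threshold but was made with the measured light, time and organ differences of these counts known, so the number of members that changed is a description of these genes. On the TAIR10.1 annotation 6 of them lie on chromosome 1 (KCS1 at 57164 to 59215, KCS2 at 1119699 to 1122786, KCS5 at 8938387 to 8940613, KCS6 at 25712414 to 25715024, KCR1 at 25391338 to 25393889 and CER1 at 418416 to 422579), 1 on chromosome 2 (KCS10, 11170416 to 11173278), 1 on chromosome 4 (CER2, 12660687 to 12662656) and 2 on chromosome 5 (KCS20, 17585523 to 17588733, and CER3, 23420184 to 23424117).

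Seedlings of the accession Col-0 were grown for 5 days at 21 °C in 16 h of light and 8 h of dark, and light treatment began on the next day at zeitgeber time 2. Hypocotyls and cotyledons were each collected after 15, 45, 90 and 180 min in low R/FR, and after 0, 15, 45, 90 and 180 min in high R/FR. That gives 18 groups of 2 libraries, 36 in all, each from 50 seedlings of 1 plate that were fixed in acetone and dissected under ethanol. All groups share the same wild-type background and carry no mutation or transgene. The labels do not say that the 2 libraries of a group came from separate cultures or days, so p-values measure the spread between these samples, which may be technical.

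The epidermis of a shoot covers itself with a cuticle, a layer of cutin polyester filled and coated with wax. Wax precursors are made by lengthening ordinary fatty acids on the endoplasmic reticulum: a KCS condensing enzyme adds a unit of carbon and fixes which chain lengths are reached, and a ketoacyl-CoA reductase, a dehydratase and an enoyl-CoA reductase complete each round. CER2 acts together with KCS6 so that the longest chains are formed, and CER1 with CER3 turns those chains into alkanes, a major component of shoot wax in Arabidopsis.

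The 2 pairs of closest relatives among the members are shown first, since they are the pairs whose reads could be confused and whose counts moved differently in several comparisons. KCS2 and KCS20 share 84.0% of 1554 aligned coding bases and KCS5 and KCS6 share 81.2% of 1479, while all other pairs of the 6 KCS members share 62.0 to 68.4%. Below are the 90-base coding stretches where the partners of each pair are most alike, from the TAIR10.1 RefSeq genome and annotation, with the bases that differ between partners in capitals. The KCS2 stretch lies at chr1:1120018-1120107 on the minus strand, the KCS20 stretch at chr5:17588253-17588342 on the plus strand, the KCS5 stretch at chr1:8938910-8938999 on the minus strand and the KCS6 stretch at chr1:25713112-25713201 on the minus strand.
KCS2: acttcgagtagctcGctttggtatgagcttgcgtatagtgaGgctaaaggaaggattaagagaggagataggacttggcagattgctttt
KCS20: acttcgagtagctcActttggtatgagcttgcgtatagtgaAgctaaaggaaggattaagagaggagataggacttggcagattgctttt
KCS5: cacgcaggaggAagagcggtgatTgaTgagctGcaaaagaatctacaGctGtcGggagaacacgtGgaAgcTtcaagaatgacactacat
KCS6: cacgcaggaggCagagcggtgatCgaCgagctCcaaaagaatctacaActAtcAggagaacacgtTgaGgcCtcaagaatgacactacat
The first pair differs at 2 of the 90 bases and the second at 10. Of all runs of 50 bases in the exons, 4 of KCS2 (0.21%) and 4 of KCS20 (0.19%) occur elsewhere in the genome, against 0 for each of the other 8 members, so few reads of that length could be assigned to the wrong gene.

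Library totals ran from 23560273 to 34231167 gene counts in hypocotyls and from 24897594 to 45115165 in cotyledons, and values below are CPM, read counts set relative to the TMM-scaled library total, unless said otherwise. Of the 33602 genes, 20126 were tested over all 36 libraries. A gene is said to have risen or fallen where the adjusted p of edgeR's quasi-likelihood test was under 0.05 over all genes tested. Under low R/FR these words are relative to high R/FR at the same time, a level that could itself change over time. In high R/FR hypocotyls at 15 min, the second library held 39 reads without a unique place per 100 gene counts, against at most 20.2 in any other library. Markers of roots (COBL9, RHD6, PLT1) and of the stem cells of the shoot apex (WUS, CLV3) were near 0 in both organs, but MYB36, of the root endodermis, had a median of 20.7 CPM in hypocotyls (up to 29.3) and 0 in cotyledons, and STM, of the shoot apex, a median of 1.2 CPM in hypocotyls and 0 in cotyledons. These levels were not constant between the lights. With MYB36 included, the summed root markers in hypocotyls at 180 min were 1.31 to 2.25 CPM in low R/FR, against 15.8 to 19.6 CPM in high R/FR. The summed markers of suberised endodermis (ASFT, CYP86A1 and GPAT5) were 8.8 to 11.5 CPM, against 22.2 to 27.6 CPM. Nearly all of this sum was ASFT, since CYP86A1 and GPAT5 held 14 and 10 reads over all hypocotyl libraries. The part of such cells in the results was not tested.

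Set per kilobase of exon, so that genes can be compared with each other, KCS6 had the highest median over all times in high R/FR hypocotyls and KCS1 in high R/FR cotyledons. KCS6, the condensing enzyme on which stem wax chiefly depends, had a median of 292 CPM per kb in hypocotyls (range 214 to 462, n = 10) and 158 in cotyledons (135 to 221, n = 10). KCS1, a condensing enzyme of wider use in elongation, had a median of 68.0 in hypocotyls (46.7 to 82.6) and 214 in cotyledons (136 to 266). In cotyledons KCS1 led only up to 45 min. Its mean was 170 at 90 min, under KCS10 (242) and KCS6 (188), and 136 at 180 min, under KCS6 (207) and KCS10 (189). Within hypocotyls KCS6 stood clear of the members below it. KCS10 (median 145.0, 123 to 174) and KCS20 (122, 92.8 to 157) overlapped, as did CER2 (96.2), CER3 (78.2), KCS1 and KCR1 (62.4, 47.1 to 89.5).

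In cotyledons the first 4 members, KCS1, KCS10 (median 190.9), KCS20 (184) and KCS6, overlapped one another in range, and CER3 (71.1), CER2 (60.5) and KCR1 (55.2) formed the next overlapping group. The remaining 3 genes were low and differed most between organs. KCS5, the closest relative of KCS6, had 2.2 CPM per kb in hypocotyls (1.5 to 3.34) and 21.0 in cotyledons (19.2 to 25.5). KCS2, the closest relative of KCS20, had 7.53 in hypocotyls (3.03 to 22.6) and 0.358 in cotyledons (0.163 to 1.46), so each low-level relative was found mainly in 1 organ. CER1 was close to absent: the 10 high R/FR hypocotyl libraries held 8 CER1 reads in all and the 10 cotyledon libraries held 76.

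**Figure D1:**
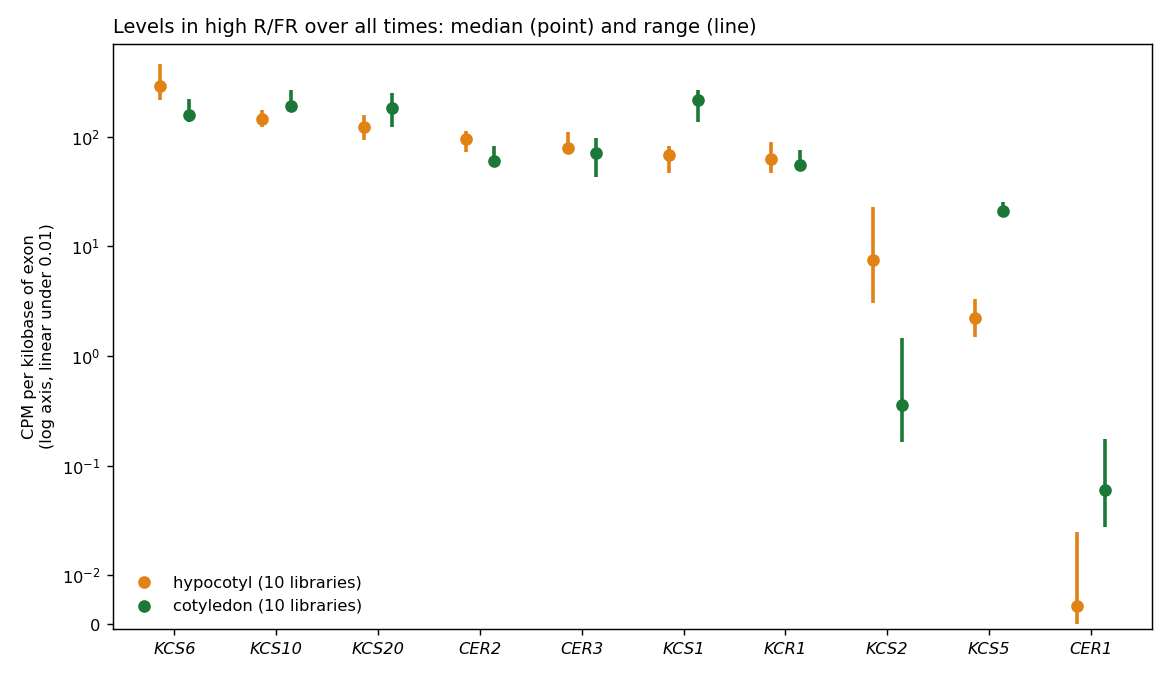
Levels of the 10 genes in high R/FR, as CPM per kilobase of exon on a log axis that is linear under 0.01, with hypocotyl libraries in orange on the left and cotyledon libraries in green on the right of each gene. Points are medians and lines the range of 10 libraries. Over all times KCS6 had the highest median in hypocotyls (292) and KCS1 in cotyledons (214). In cotyledons KCS1 lay under KCS6 and KCS10 at 90 and 180 min. CER1 was the lowest in both organs.

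Low R/FR changed the cuticle genes of the hypocotyl late. No member passed the test at 15 or 45 min in edgeR (0 of 10 at each time, with 2 of 10 at an unadjusted p under 0.05 at each and 0 in DESeq2), where 0.179% (0.159% higher, 0.0199% lower) and 3.31% (2.09% higher, 1.22% lower) of all genes tested passed. At 90 min, 4 members had risen (KCS1, KCS5, KCS20 and CER2) and 2 had fallen (KCS2 and KCS6), against a background of 37.6% of all genes, 19.1% higher and 18.5% lower. At 180 min, 8 members had risen and 1 (KCS6) had fallen, against 63.8% of all genes, 31.2% higher and 32.6% lower. The median log2 difference of the members was 0.39 at 90 min and 0.72 at 180 min (0.21 and 0.64 without CER1), beside -0.02 and -0.04 over all genes tested. In whole organs, fewer cells of a type and less RNA per cell cannot be told apart, and this holds for every level given here.

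**Figure D2:**
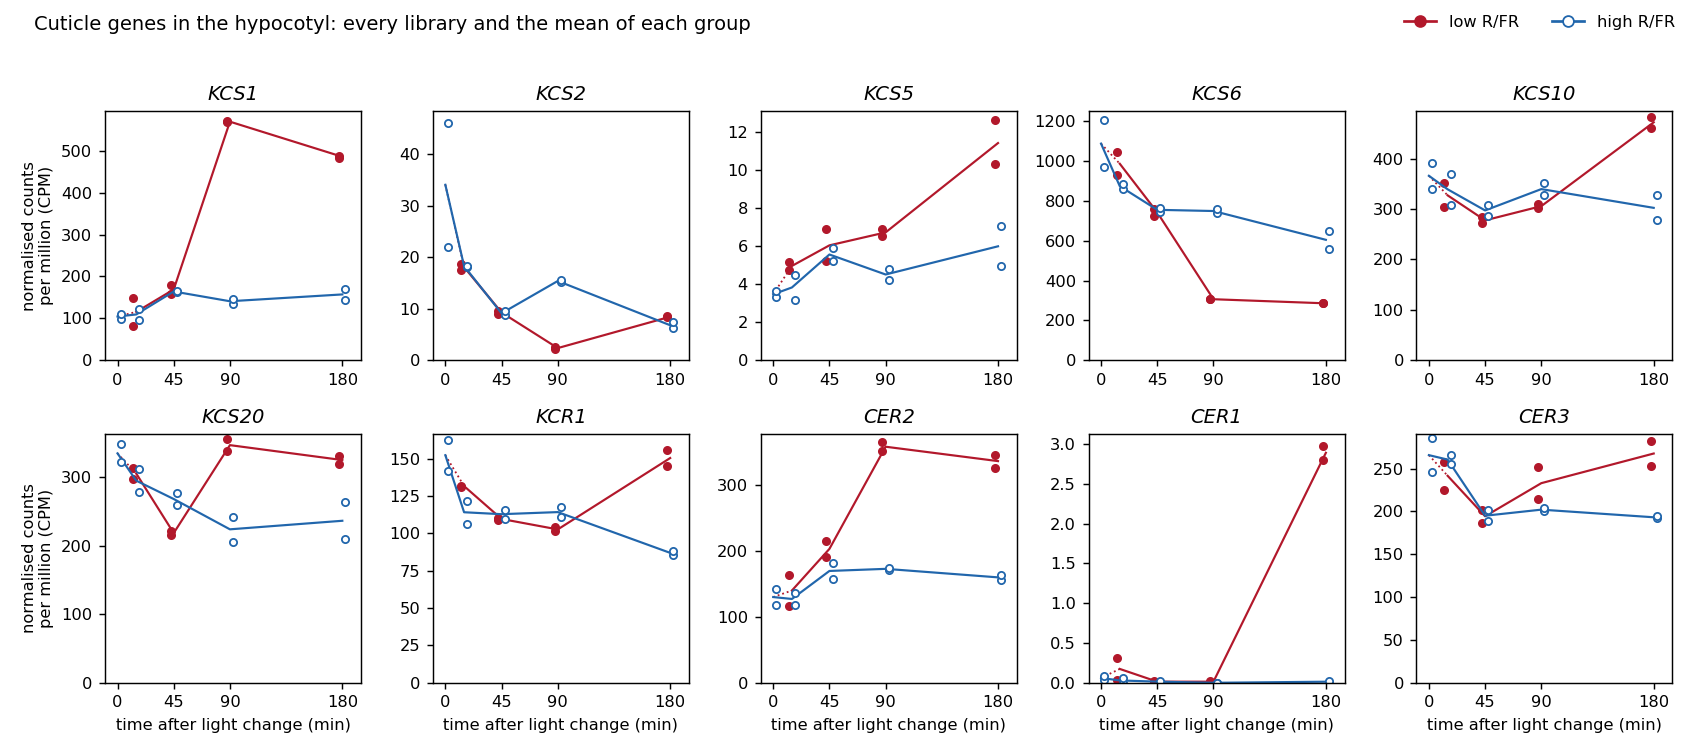
CPM of each of the 10 genes in every hypocotyl library against minutes of treatment, 1 panel per gene, with low R/FR libraries as filled red points and high R/FR libraries as open blue points. Lines join group means of 2 libraries, and the dotted line joins the 0 min high R/FR mean to the first low R/FR time. The lights part after 45 min, with KCS1 and CER2 above and KCS6 below their high R/FR values at 90 and 180 min, and CER1 leaves the axis only at 180 min of low R/FR.

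Among the KCS members, KCS1 rose most in the hypocotyl. Its low R/FR libraries had 569 and 570.1 CPM at 90 min, against 134.5 and 147 CPM in high R/FR, a 4.04-fold difference (log2 2.02 ± 0.17 SE, adjusted p = 9.59e-10). At 180 min they had 484 and 487.5 CPM in low R/FR, against 145 and 169.5 CPM in high R/FR (1.63 ± 0.17, adjusted p = 1.07e-08). The lights did not overlap at either time, whereas at 45 min the low R/FR libraries (159 and 179 CPM) enclosed the high R/FR ones (162 and 166 CPM).

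KCS6 moved the other way. It fell to 305 and 308 CPM in low R/FR hypocotyls at 90 min, against 739 and 760.1 CPM in high R/FR (log2 -1.29 ± 0.10 SE, adjusted p = 4.33e-12). At 180 min the values were 285 and 286 CPM in low R/FR and 558.5 and 651 CPM in high R/FR (-1.08 ± 0.10, adjusted p = 6.38e-11). Both low R/FR groups were far under their controls, and KCS6 was the only one of the 10 genes that fell at both times. Its relative KCS5, at a far lower level, rose: it had 10.3 and 12.6 CPM at 180 min of low R/FR, against 4.94 and 7.03 CPM in high R/FR (0.92 ± 0.16, adjusted p = 1.22e-05). The rise was 0.61 without control library 3, the lower of the pair. At 90 min KCS5 had 6.51 and 6.91 CPM in low R/FR, against 4.2 and 4.8 CPM in high R/FR (0.58 ± 0.17, adjusted p = 0.009), a call that ended without either of 2 libraries (lowest 0.45, adjusted p = 0.108).

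KCS20 and KCS2, known to act together in elongation for root suberin and shoot wax, differed in course. KCS20 had 338 and 356 CPM in low R/FR at 90 min, against 206 and 243 CPM in high R/FR (log2 0.63 ± 0.10 SE, adjusted p = 1.27e-05). At 180 min it had 319 and 332 CPM in low R/FR, against 210.0 and 263 CPM in high R/FR (0.46 ± 0.10, adjusted p = 0.000331), which became 0.21 with adjusted p = 0.13 without control library 3. KCS20 was thus above its controls at both times, with the later call resting on 1 library. KCS2 had 2.11 and 2.61 CPM in low R/FR at 90 min, against 15.3 and 15.5 CPM in high R/FR (-2.70 ± 0.27, adjusted p = 1.18e-08), and 8.39 and 8.53 CPM against 6.2 and 7.41 CPM at 180 min (0.31 ± 0.24, adjusted p = 0.277). The KCS2 difference was present at 90 min and did not pass the test at 180 min.

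KCS10, known as FIDDLEHEAD for its part in keeping the epidermis of neighbouring organs from fusing, and KCR1, the main ketoacyl-CoA reductase of elongation, rose only by 180 min. KCS10 had 460.5 and 483 CPM in low R/FR at 180 min, against 278 and 327 CPM in high R/FR (log2 0.64 ± 0.10 SE, adjusted p = 1.17e-06), and -0.15 ± 0.10 at 90 min (adjusted p = 0.236). KCR1 had 145 and 156 CPM in low R/FR at 180 min, against 85.7 and 88.2 CPM in high R/FR (0.79 ± 0.08, adjusted p = 6.42e-10), and -0.15 ± 0.08 at 90 min (adjusted p = 0.131). Both genes lay slightly under their controls at 90 min and clear above them at 180 min.

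CER2, the partner of KCS6, rose at both late times. Its hypocotyl libraries had 350.2 and 365 CPM in low R/FR at 90 min, against 170.4 and 174.5 CPM in high R/FR (log2 1.05 ± 0.13 SE, adjusted p = 1.16e-07). At 180 min they had 326 and 346 CPM in low R/FR, against 156 and 163 CPM in high R/FR (1.07 ± 0.13, adjusted p = 3.19e-08). CER2 and KCS6 therefore moved in opposite directions in the same libraries.

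Of the alkane-forming pair, CER3 rose moderately and CER1 left a level near 0. CER3 had 253 and 282 CPM in low R/FR at 180 min, against 192 and 194 CPM in high R/FR (log2 0.47 ± 0.10 SE, adjusted p = 0.000139; 0.29 without low R/FR library 1), and 0.21 ± 0.10 at 90 min (adjusted p = 0.106). CER1 had 2.8 and 2.98 CPM in low R/FR at 180 min, against 0 and 0.0272 CPM in high R/FR. These are 200 reads in the low R/FR libraries together and 1 in the high R/FR libraries, a ratio of 196 with a counting interval (95%, exact) of 34.8 to 7782 (adjusted p = 1.05e-09). At 90 min the same sums were 1 and 0 reads, at or under the limit of 3 counts that an observation of 0 allows. At 15 min they were 14 and 2 reads (ratio 6.17, 1.42 to 56.0; adjusted p = 0.608), most of them from 1 low R/FR library. Intervals on reads cover counting error only.

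In cotyledons most members that passed the test under low R/FR were lower. The calls were opposite to those in hypocotyls for KCS5 and KCS20 at 90 min, and for KCS1, KCS5, KCS10, KCS20 and CER3 at 180 min. How many of all genes had opposite calls in the organs was not counted. None of the 10 genes passed the test at 15 min in edgeR (0 also at an unadjusted p under 0.05, and 0 in DESeq2, where 0.219% of all genes passed in edgeR). KCS20 alone passed at 45 min, lower, against 3.62% of all genes, 2.31% higher and 1.31% lower. At 90 min 1 member had risen (CER1) and 4 had fallen (KCS5, KCS6, KCS20 and CER3), against 10.8% of all genes, 4.41% higher and 6.35% lower. At 180 min 2 had risen (KCS2 and CER1) and 6 had fallen (KCS1, KCS5, KCS6, KCS10, KCS20 and CER3), against 19.5% of all genes, 8.02% higher and 11.5% lower. The median log2 difference of the members was -0.30 at 90 min and -0.34 at 180 min (-0.44 and -0.41 without CER1), beside -0.02 at both times over all genes tested.

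**Figure D3:**
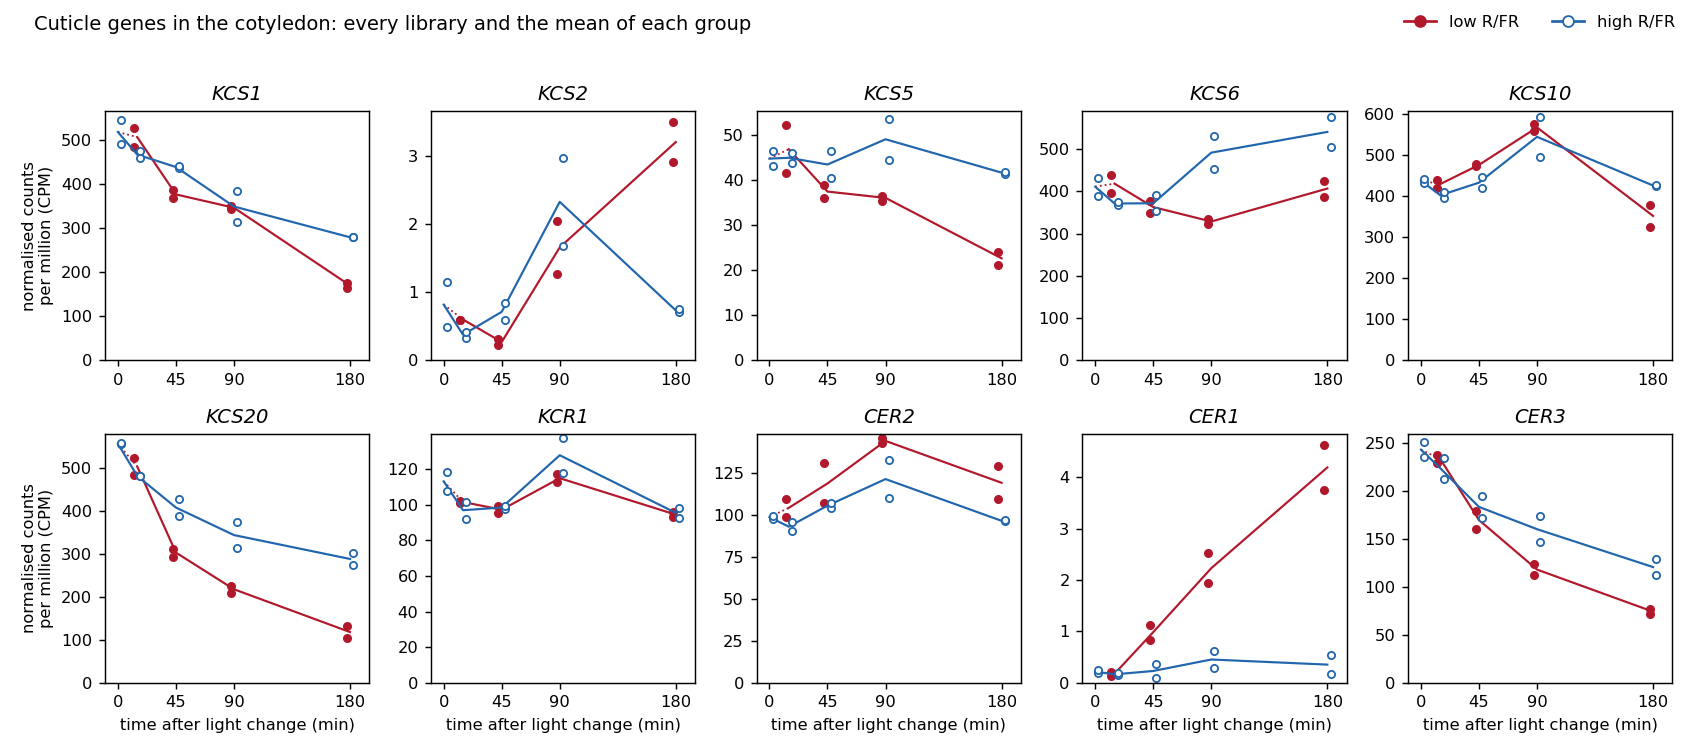
CPM of each of the 10 genes in every cotyledon library against minutes of treatment, drawn as in the plot of hypocotyl libraries (filled red, low R/FR; open blue, high R/FR; lines, group means of 2 libraries). KCS1, KCS20 and CER3 run downward in both lights and lie lower in low R/FR at 180 min, while CER1 climbs only in low R/FR.

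KCS20 was the first member to change in cotyledons and the one that fell furthest. Its low R/FR libraries had 293 and 312 CPM at 45 min, against 387 and 427 CPM in high R/FR (log2 -0.43 ± 0.10 SE, adjusted p = 0.0125), a call that ended without any of 3 of the 4 libraries (adjusted p 0.0567 to 0.205). At 90 min they had 209 and 225 CPM in low R/FR, against 313 and 373 CPM in high R/FR (-0.66 ± 0.10, adjusted p = 2.57e-05). By 180 min the level was 105 and 131 CPM in low R/FR, against 273 and 302 CPM in high R/FR (-1.29 ± 0.11, adjusted p = 2e-10). The lights were apart at all 3 times and the gap was widest at 180 min.

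The other KCS members that fell in cotyledons fell by less. KCS1 had 164 and 175 CPM in low R/FR at 180 min, against 279 and 280 CPM in high R/FR (log2 -0.72 ± 0.16 SE, adjusted p = 0.00272). KCS5 had 21.1 and 24.1 CPM in low R/FR, against 41.4 and 41.8 CPM in high R/FR at 180 min (-0.88 ± 0.14, adjusted p = 1.99e-05). For KCS5 the 90 min difference was -0.45 ± 0.13 (adjusted p = 0.0223), and it ended without any of 3 of the 4 libraries (adjusted p 0.103 to 0.347). KCS1 and KCS5 thus rose in hypocotyls and fell in cotyledons at the same time point.

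KCS6 had 323 and 334 CPM in low R/FR cotyledons at 90 min, against 453 and 531 CPM in high R/FR (log2 -0.58 ± 0.10 SE, adjusted p = 4.94e-05). At 180 min it had 388 and 426 CPM in low R/FR and 505 and 577 CPM in high R/FR (-0.41 ± 0.10, adjusted p = 0.00226), and the call ended without control library 2 (adjusted p = 0.0799) or without shaded library 1 (adjusted p = 0.0554). KCS6 was the single member that fell in both organs relative to high R/FR. Its 180 min low R/FR mean in cotyledons (406.8 CPM) was near the 0 min mean (411.2 CPM), while the high R/FR mean rose to 541 CPM. KCS10 had 324 and 380.2 CPM in low R/FR at 180 min, against 425 and 428 CPM in high R/FR (-0.28 ± 0.10, adjusted p = 0.0437). This KCS10 call was the weakest of the set: it ended under 5 other settings (adjusted p 0.0511 to 0.136) and without any of 3 of the 4 libraries.

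KCS2 was among the 2 members that rose in cotyledons, from very few reads. It had 2.92 and 3.5 CPM in low R/FR at 180 min, against 0.705 and 0.761 CPM in high R/FR, or 150 reads in the low R/FR libraries together and 36 in the high R/FR libraries (log2 2.12 ± 0.43 SE, adjusted p = 0.000783). KCR1 had 93.3 and 95.8 CPM in low R/FR, against 92.6 and 98.4 CPM in high R/FR at 180 min (-0.01 ± 0.08, adjusted p = 0.941). CER2 had 109.0 and 129 CPM in low R/FR, against 95.9 and 96.8 CPM in high R/FR (0.30 ± 0.13, adjusted p = 0.101; 0.35 with adjusted p = 0.0127 when cotyledon libraries were fitted alone). The reductase overlapped between lights, and CER2 did not overlap but missed the threshold.

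CER1 rose in cotyledons earlier than in hypocotyls and CER3 fell. CER1 had 1.95 and 2.52 CPM in low R/FR at 90 min, against 0.28 and 0.626 CPM in high R/FR, 97 reads and 32 reads in all (ratio 4.66, counting interval 3.1 to 7.18; adjusted p = 0.000541). At 180 min it had 3.76 and 4.62 CPM in low R/FR, against 0.176 and 0.533 CPM in high R/FR, 196 reads and 18 reads (ratio 11.4, 7.05 to 19.7; adjusted p = 1.29e-06). At 45 min the reads were 44 in low R/FR and 10 in high R/FR (ratio 4.18, 2.07 to 9.31; adjusted p = 0.0608, and 0.0405 without low R/FR library 1). CER3 had 112 and 124 CPM in low R/FR cotyledons at 90 min, against 146 and 174 CPM in high R/FR (log2 -0.44 ± 0.10 SE, adjusted p = 0.00238), a call that ended without library 2 of either light (adjusted p = 0.129 for high R/FR and 0.0766 for low R/FR). It had 71.2 and 76.9 CPM in low R/FR at 180 min, against 112 and 129 CPM in high R/FR (-0.70 ± 0.10, adjusted p = 5.54e-06). So the partners of the alkane-forming complex moved together in hypocotyls at 180 min and apart in cotyledons.

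**Figure D4:**
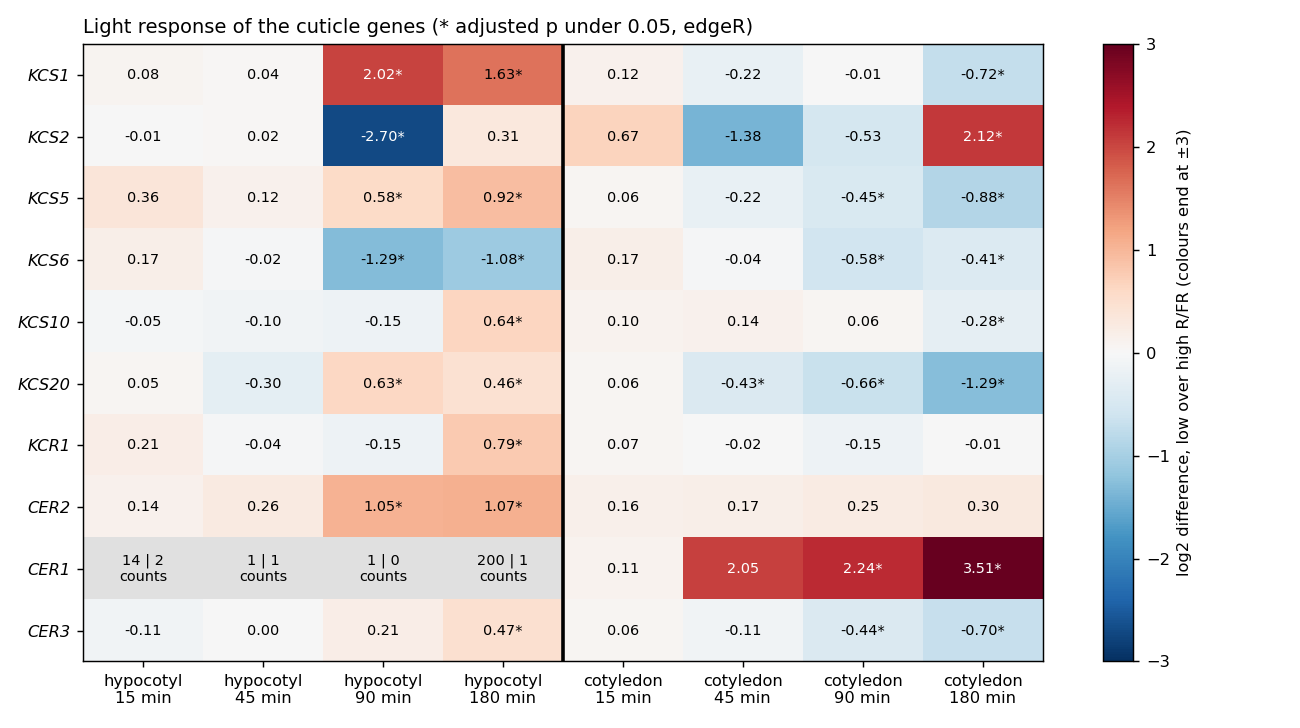
Log2 difference, low R/FR over high R/FR, of each gene at each time in each organ (2 libraries per group), with an asterisk where the adjusted p was under 0.05. CER1 in hypocotyls is drawn in grey with its read sums, low R/FR first, because most of its groups lie near 0. At 180 min the hypocotyl column is mostly positive (KCS1 1.63) and the cotyledon column mostly negative (KCS20 -1.29).

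The light response of the 10 genes differed between the organs when the difference was tested directly, as the interaction of organ and light. At 15 and 45 min the edgeR test called 0 of 10 members (0 also at an unadjusted p under 0.05 and in DESeq2 at both times), and 0.0149% and 0.696% of all genes. At 90 min it called 7 of 10, 5 higher and 2 lower in hypocotyls than in cotyledons, against 21.4% of all genes, 12.2% higher and 9.12% lower. At 180 min it called all 10, 8 higher and 2 lower, against 46.5% of all genes, 23.7% higher and 22.8% lower. The largest differences at 180 min, apart from CER1, were 2.35 ± 0.23 SE for KCS1 (adjusted p = 1.84e-08), 1.81 ± 0.21 for KCS5 (adjusted p = 5.39e-08), -1.81 ± 0.50 for KCS2 (adjusted p = 0.00456) and 1.75 ± 0.15 for KCS20 (adjusted p = 8.97e-11). The CER1 value of 3.74 ± 1.19 (adjusted p = 0.0106) depends on a hypocotyl control with 1 read, and its call ended without either of 2 libraries (adjusted p 0.0855 and 0.16).

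In direction, KCS1, KCS5, KCS10, KCS20 and CER3 had risen in hypocotyls and fallen in cotyledons at 180 min, CER1 had risen in both and KCS6 had fallen in both, while KCS2 had risen in cotyledons and missed the threshold in hypocotyls. KCS6 fell further in the hypocotyl, by an interaction of -0.67 ± 0.14 SE on the log2 scale (adjusted p = 0.000151). KCR1 (0.81 ± 0.11, adjusted p = 7.49e-07) and CER2 (0.77 ± 0.18, adjusted p = 0.000812) had risen in hypocotyls and did not pass the test in cotyledons.

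**Figure D5:**
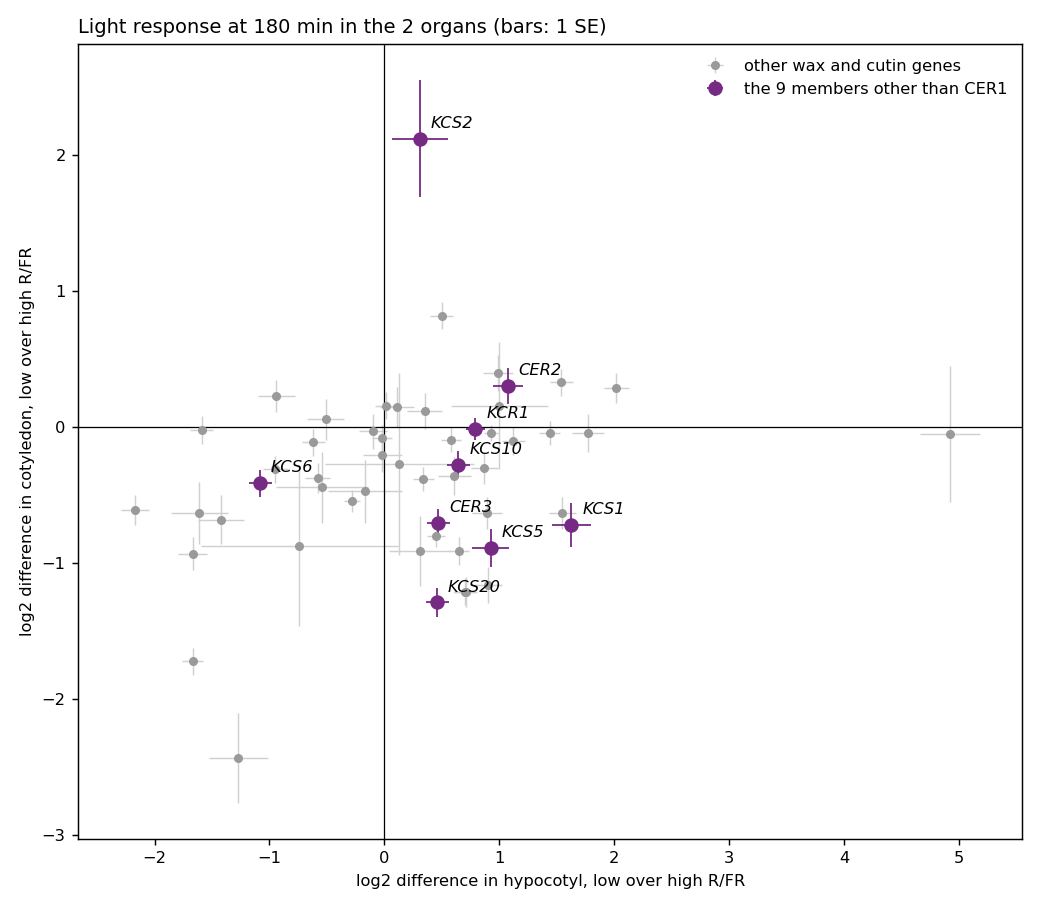
Log2 difference at 180 min, low R/FR over high R/FR, in hypocotyls (x axis) against cotyledons (y axis), for 9 of the 10 genes in purple (CER1 left out) and for other wax and cutin genes in grey, with bars of 1 SE from 2 libraries per group. KCS1, KCS5, KCS10, KCS20 and CER3 lie to the right of and under the origin, and KCS6 lies left of and under it.

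The course of the genes in constant high R/FR, against which the low R/FR groups were read, also differed by organ. In hypocotyls at 180 min against 0 min, 2 members had risen (KCS1 and KCS5) and 6 had fallen (KCS2, KCS6, KCS10, KCS20, KCR1 and CER3), against 44.9% of all genes, 22% higher and 22.9% lower. In cotyledons 1 had risen (KCS6) and 4 had fallen (KCS1, KCS20, KCR1 and CER3), against 55.6% of all genes, 32.1% higher and 23.5% lower. The 180 min high R/FR libraries serve both here and as the controls of the 180 min light comparison, so the values of the 2 comparisons are given side by side and are not independent.

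In hypocotyls KCS6 had 558.5 and 651 CPM at 180 min of high R/FR, against 971 and 1205 CPM at 0 min (log2 -0.85 ± 0.10 SE, adjusted p = 2.55e-08). KCS2 had 6.2 and 7.41 CPM, against 22.1 and 46.2 CPM (-2.32 ± 0.23, adjusted p = 2e-08), and its mean passed through 18.3, 9.12 and 15.4 CPM at 15, 45 and 90 min. KCR1 had 85.7 and 88.2 CPM, against 142 and 163 CPM (-0.81 ± 0.08, adjusted p = 1.61e-09). These 3 genes fell most in hypocotyls without any change of light quality, and KCR1 in low R/FR at 180 min (145 and 156 CPM) lay within the range of the 0 min libraries. The 180 min low R/FR means of KCS20 and CER3 (325 and 267.5 CPM) were likewise near their 0 min means (335 and 265.6 CPM). Smaller falls were measured for KCS20 (-0.50, adjusted p = 0.000227), CER3 (-0.46, adjusted p = 0.000342) and KCS10 (-0.28, adjusted p = 0.021; 0.304 without 0 min library 2, 0.308 without 180 min library 3, and 0.0648 with plain count totals).

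KCS1 had 145 and 169.5 CPM in hypocotyls at 180 min of high R/FR, against 99.3 and 109 CPM at 0 min (log2 0.59 ± 0.16 SE, adjusted p = 0.00536), a call that ended without 0 min library 1 (adjusted p = 0.0523) or 180 min library 2 (adjusted p = 0.0655). KCS5 rose by 0.80 ± 0.19 (adjusted p = 0.000858), and by 0.52 with adjusted p = 0.0539 without 180 min library 2. CER2 had 156 and 163 CPM at 180 min, against 118 and 142 CPM at 0 min (0.30 ± 0.13, adjusted p = 0.0562; 0.44 with adjusted p = 0.02 without 0 min library 2).

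In cotyledons the falls over 180 min of high R/FR were those of KCS1, KCS20 and CER3. CER3 had 112 and 129 CPM at 180 min, against 235 and 251 CPM at 0 min (log2 -1.01 ± 0.10 SE, adjusted p = 9.19e-10). KCS20 had 273 and 302 CPM, against 554 and 556 CPM (-0.95 ± 0.11, adjusted p = 6.86e-09), and KCS1 had 279 and 280 CPM, against 490.3 and 547 CPM (-0.89 ± 0.16, adjusted p = 6.53e-05). All 3 also fell under low R/FR relative to high R/FR at 180 min. KCS6 rose instead, to 505 and 577 CPM at 180 min, against 390.3 and 432 CPM at 0 min (0.40 ± 0.10, adjusted p = 0.000865). The KCR1 fall of -0.24 (adjusted p = 0.0107) ended without 0 min library 2 (adjusted p = 0.146) or 180 min library 2 (adjusted p = 0.105).

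The time course itself differed between organs for 7 of the 10 genes by the interaction of organ and time, against 34% of all genes, 14.2% higher and 19.9% lower. KCS6 had the difference with the smallest p (-1.24, adjusted p = 4.49e-08), since it fell in hypocotyls and rose in cotyledons. KCS1 differed by 1.48 (adjusted p = 2.85e-05), rising in hypocotyls and falling in cotyledons.

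Between the organs in high R/FR, with time taken into account, 4 members were higher in hypocotyls (KCS2, KCS6, CER2 and CER3) and 5 were lower (KCS1, KCS5, KCS10, KCS20 and CER1), of which KCS10 and KCS20 turned their direction with plain count totals. Of all genes tested here, 80.2% passed, 40.8% higher and 39.4% lower in hypocotyls. The differences, hypocotyl over cotyledon, were 3.88 ± 0.30 SE for KCS2 (adjusted p = 1.25e-09), -3.30 ± 0.12 for KCS5 (adjusted p = 6.94e-15), -1.62 ± 0.15 for KCS1 (adjusted p = 1.97e-08) and 0.87 ± 0.11 for KCS6 (adjusted p = 1.18e-06). Those of CER2 and CER3 were 0.53 ± 0.06 (adjusted p = 8.95e-08) and 0.27 ± 0.07 (adjusted p = 0.00217).

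The organ comparison rests on the scaling. TMM factors were 1.19 to 1.29 in hypocotyls and 0.767 to 0.854 in cotyledons, and with plain count totals the median difference of all genes moved to 0.65 from 0.01, and every member moved with it. KCS10 was -0.47 with TMM and 0.17 with plain totals (adjusted p = 0.0135), and KCS20 was -0.61 with TMM and 0.029 with plain totals (adjusted p = 0.707), so the direction of these genes between organs depends on the scaling. In low R/FR 4 members were higher in hypocotyls (KCS2, KCR1, CER2 and CER3) and 3 lower (KCS5, CER1 and KCS10, the last at 0.17 with plain totals and not called without any 1 of 4 libraries), against 64.8% of all genes. KCS1 and KCS20, which had opposite light responses in the organs, were at -0.26 ± 0.44 and 0.23 ± 0.25 in low R/FR (adjusted p = 0.624 and 0.44). A fit of all 36 libraries with a mean for each group called all 10 genes in low R/FR, 6 higher and 4 lower, among them KCS1 (-0.27, adjusted p = 0.0049), KCS20 (0.24, adjusted p = 0.000133) and KCS6 (0.42, adjusted p = 5.09e-09). These values average all times of low R/FR, over which the order of the organs turned for KCS1, KCS20 and KCS6. At 15 min the mean of KCS6 was 987 CPM in hypocotyls and 418 CPM in cotyledons, and at 180 min 286 and 407 CPM. KCS1 had 115 and 507 CPM at 15 min, and 486 and 170 CPM at 180 min. KCS20 had 306 and 502 CPM at 15 min, and 325 and 118 CPM at 180 min. In the organ fit within low R/FR the KCR1 difference of 0.26 ended without any of 8 libraries, and that of CER1 had adjusted p = 0.0534 with plain totals. With replicate numbers as blocks, KCR1 (adjusted p = 0.16) and CER3 (adjusted p = 0.0504) were not called, though the labels do not pair the organs.

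The members did not form a single expression pattern over the study. After each organ's mean was removed, the 45 pairs of members had correlations over the 18 group means that ran from -0.893 (KCS6 and CER2) to 0.961 (KCS20 and CER3), with a median of 0.162 and 29 above 0. These correlations describe groups that share scaling, organ and time of day. Within an organ they could differ: KCS1 and CER2 had r = 0.985 over the 9 hypocotyl groups and -0.372 over the 9 cotyledon groups, and KCS1 and KCS20 had 0.365 in hypocotyls and 0.946 in cotyledons. Over the 18 groups neither pair of close relatives ran in parallel, with r = -0.449 for KCS2 and KCS20 and -0.642 for KCS5 and KCS6. By organ, KCS2 and KCS20 had -0.045 in hypocotyls and -0.655 in cotyledons. KCS5 and KCS6 had -0.864 in hypocotyls and 0.231 in cotyledons, so their opposition was seen in hypocotyls only.

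By the same measure, over all genes tested, the genes most like KCS20 were PYL1 (r = 0.942), which encodes an abscisic acid receptor, and KCS3 (0.942), another condensing enzyme. The gene most like KCR1 was CER10 (0.871), which encodes the enoyl-CoA reductase of the same elongation cycle. KCS1 was most like AT1G12460 (0.981) and CSLC12 (0.978), KCS6 most like AT3G11210 (0.969) and AT1G01180 (0.968), and CER3 most like AT3G56370 (0.97) and AT3G52920 (0.954). For CER2 they were AT1G65920 (0.956) and NST-K1 (0.954), and for CER1 AT5G02530 (0.949) and RCI2B (0.942), a small membrane protein induced by cold. The highest values were lower for KCS2 (AT1G60890, 0.905), KCS5 (AT2G17500, 0.923) and KCS10 (AT3G27400, 0.898).

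Other genes of wax and cutin formation were read from a list of 61, of which 48 had enough counts for the test. CER4, CUS2 and CYP86A7, among the 48, did not have enough counts in the high R/FR libraries alone. They entered through their low R/FR counts, so their place in the counts of risen genes below is no independent support. In hypocotyls 18 of the 48 had risen and 13 had fallen at 90 min of low R/FR, against 19.1% and 18.5% of all genes, and 25 had risen and 13 had fallen at 180 min, against 31.2% and 32.6%. In cotyledons 2 had risen and 15 had fallen at 90 min, against 4.41% and 6.35% of all genes, and 3 had risen and 17 had fallen at 180 min, against 8.02% and 11.5%. Their median log2 difference at 180 min was 0.35 in hypocotyls and -0.29 in cotyledons, beside -0.04 and -0.02 over all genes. By the interaction test at 180 min, 22 were higher and 9 lower in hypocotyls than in cotyledons, against 23.7% and 22.8% of all genes.

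In hypocotyls at 180 min 10 of 13 cutin genes had risen and 1 had fallen, where 31.2% of all genes had risen and 32.6% had fallen. The 13 include CUS2 (35 reads in low R/FR and 1 in high R/FR) and CYP86A7 (71 and 9 reads), which entered the test through their low R/FR counts. CYP86A4, a fatty acid hydroxylase of cutin synthesis, had 32.1 and 32.1 CPM in low R/FR, against 0.871 and 1.23 CPM in high R/FR (log2 4.92 ± 0.26 SE, adjusted p = 4.64e-16). BDG1, an epidermal hydrolase needed for the cuticle, had 120.0 and 123 CPM in low R/FR, against 41.1 and 42.4 CPM in high R/FR (1.54 ± 0.10). Of 16 further elongation genes 7 had risen and 4 had fallen, against the same shares of all genes. KCS4 had 41.4 and 42.4 CPM in low R/FR, against 10.0 and 10.6 CPM in high R/FR (2.02 ± 0.11, adjusted p = 5.07e-16), whereas KCS19 had 43.5 and 44.1 CPM in low R/FR, against 123 and 140.2 CPM in high R/FR (-1.59 ± 0.10). CER4, the reductase that makes wax alcohols, had 63 reads in low R/FR and 1 read in high R/FR in hypocotyls at 180 min, and 0 reads in both lights in cotyledons.

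Of 10 regulators tested, 3 had risen and 4 had fallen in hypocotyls at 180 min, and 1 had risen and 5 had fallen in cotyledons. The hypocotyl counts are near the shares of all genes (31.2% higher, 32.6% lower), and the cotyledon background was 8.02% higher and 11.5% lower. DEWAX, a transcription factor that represses wax genes, had 11.8 and 13.7 CPM in low R/FR hypocotyls at 180 min, against 55.4 and 59.2 CPM in high R/FR (log2 -2.17 ± 0.12 SE, adjusted p = 1.58e-15), and in cotyledons it had fallen by 45 min (-0.57) and further by 90 min (15.4 and 15.7 CPM in low R/FR, against 59.1 and 64.2 CPM in high R/FR, -1.99 ± 0.12). MYB30, an activator of very-long-chain fatty acid genes, moved in opposite directions in the organs: it had 67.2 and 68.0 CPM in low R/FR hypocotyls at 90 min, against 25.9 and 27.1 CPM in high R/FR (1.35 ± 0.09, adjusted p = 3.74e-13). In cotyledons at 180 min it had 18.2 and 18.8 CPM in low R/FR, against 42.5 and 43.4 CPM in high R/FR (-1.21 ± 0.10). The interaction for MYB30 was 2.11 at 90 min and 1.91 at 180 min, both called.

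At 180 min 4 of 5 export genes and 2 of 3 acyl activation genes had fallen in cotyledons, against 11.5% of all genes. In hypocotyls 3 of the 5 had risen and 2 had fallen, and 1 of the 3 had risen and 2 had fallen, against 31.2% and 32.6% of all genes. ABCG12, a wax exporter of the plasma membrane, had 125 and 140 CPM in low R/FR hypocotyls at 90 min, against 286 and 290.4 CPM in high R/FR (log2 -1.13 ± 0.08 SE, adjusted p = 3.2e-13). LACS1, an acyl-CoA synthetase of wax and cutin formation, had 7.36 and 8.95 CPM in low R/FR hypocotyls at 180 min, against 23.6 and 28.2 CPM in high R/FR (-1.67 ± 0.13). PAS2, the dehydratase of the elongation cycle, was an exception among cotyledon genes, with 155 and 173.5 CPM in low R/FR at 180 min, against 92.2 and 94.3 CPM in high R/FR (0.82 ± 0.10, adjusted p = 1.24e-07). Outside the 10 members, 10 further KCS genes were tested, of which 5 had risen and 2 had fallen in hypocotyls at 180 min (31.2% and 32.6% of all genes), and 4 had fallen in cotyledons (11.5% of all genes).

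Since the cuticle is made by the epidermis, 5 epidermal genes (ATML1, PDF1, PDF2, HDG1 and HDG2) were read beside the members. Their summed level was 666 to 712 CPM in low R/FR hypocotyls at 180 min, against 388 to 424 CPM in high R/FR, and 395 to 433.5 CPM in low R/FR cotyledons, against 528 to 540 CPM in high R/FR. At 90 min the sums were 386 to 389 CPM in low R/FR hypocotyls, against 336 to 382 CPM in high R/FR, and 491 to 509 CPM in low R/FR cotyledons, against 516 to 612 CPM in high R/FR. In hypocotyls at 180 min 3 of the 5 had risen (ATML1 by 0.45, PDF2 by 0.38 and PDF1 by 2.04 on the log2 scale) and HDG1 had fallen by 0.42. In cotyledons 3 of 5 had fallen (ATML1 -0.64, PDF2 -0.41 and HDG2 -0.78). In each organ 3 of the 5 epidermal genes moved in the same direction as most members. Of all genes at 180 min, 31.2% were higher and 32.6% lower in hypocotyls, and 8.02% higher and 11.5% lower in cotyledons. In hypocotyls HDG1 went the other way, and PDF1 rose far more than ATML1 and PDF2. The part of the epidermal genes in the result was not tested. Summed mesophyll markers were 16138 to 16666 CPM in low R/FR hypocotyls at 180 min, against 26433 to 30186 CPM in high R/FR, and their part was likewise not tested.

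The 250 bases before the start of the 3 members with the largest light responses are shown because the low R/FR groups of CER1, KCS2 and KCS1 moved so differently. They were read from TAIR10.1 on the strand of each gene, at chr1:418166-418415 (plus) for CER1, chr1:1122787-1123036 (minus) for KCS2 and chr1:59216-59465 (minus) for KCS1, and overlap no other annotated gene. No base is in capitals, since none of the motifs searched was found.
CER1: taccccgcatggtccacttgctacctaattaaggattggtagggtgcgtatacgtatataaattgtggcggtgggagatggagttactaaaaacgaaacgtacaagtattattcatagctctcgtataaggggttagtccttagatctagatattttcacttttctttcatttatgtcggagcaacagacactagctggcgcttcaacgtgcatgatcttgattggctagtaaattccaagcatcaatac
KCS2: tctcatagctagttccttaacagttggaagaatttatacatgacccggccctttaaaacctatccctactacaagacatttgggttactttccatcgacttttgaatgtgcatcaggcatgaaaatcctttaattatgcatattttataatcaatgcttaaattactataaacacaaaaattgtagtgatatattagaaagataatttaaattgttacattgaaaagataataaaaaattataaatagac
KCS1: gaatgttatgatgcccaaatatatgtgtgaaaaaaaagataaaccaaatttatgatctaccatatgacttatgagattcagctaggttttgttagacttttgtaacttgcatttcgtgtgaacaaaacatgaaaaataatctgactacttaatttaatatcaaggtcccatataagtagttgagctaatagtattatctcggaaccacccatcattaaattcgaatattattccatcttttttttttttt
The motifs searched, on both strands and none containing another, were the G-box CACGTG and the PBE-box CACATG, which phytochrome-interacting factors bind, the L1 box TAAATGCA or TAAATGTA of epidermal genes, and the GCC box GCCGCC of ethylene-response-type factors. These letters were found in the same window before 6.49%, 11.09%, 4.49% and 1.87% of 27443 genes. Among the members, KCS10 held an L1 box and CER2 a PBE-box, each shown with its neighbouring bases and the motif in capitals (chr2:11173314-11173343, minus, and chr4:12660623-12660652, plus).
KCS10: aaaaattgtaaTAAATGCAaacataagatc
CER2: ctacgacacgtaCATGTGcgtttattgctt
The L1 box began 54 bases and the PBE-box 52 bases before the annotated start. The 250-base window of CER2 overlaps another annotated gene, AT4G24500, whereas that of KCS10 overlaps none. A match describes letters in these windows, and a window without one says nothing of a factor's binding.

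In the authors' deposited table of light comparisons, 27 of the 80 pairs of a member and a comparison had an adjusted p under 0.05, where 29 were called here. In all, 26 were called in both, all 26 with the same sign.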

How the data were processed

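RNA was measured in 36 libraries of hypocotyls and cotyledons in 18 groups of 2, grouped by organ, light and time as the sample titles state. The deposited table holds raw read counts per gene; the authors' comparison tables hold log2 fold changes with p-values and adjusted p-values per gene, per the file headers. Per the submitters' processing notes, reads were handled on TAIR10 with limma 3.18.2, edgeR 3.4.0, HTSeq 0.5.4p3, Bowtie, TopHat2 2.0.9 and cutadapt 1.2.1 (no order is given); their settings, strand handling among them, are not given in the sources used here.

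Counts were tested with edgeR 4.0.16 (R 4.3.3; robust quasi-likelihood, TMM scaling, filterByExpr with a minimum count of 10 and a minimum total of 15, Benjamini-Hochberg adjustment over all genes tested, calls at an adjusted p under 0.05). Light, time and interaction comparisons came from 1 fit of 36 libraries with a mean for each group and 18 residual degrees of freedom, which gave a common biological coefficient of variation of 0.0763. Organs were compared with a term for each time and 1 for organ, in the 20 high R/FR libraries or the 16 low R/FR libraries (19825 and 19861 genes tested). Standard errors are the log2 difference divided by the square root of F. Lines of the table that name no gene were left out; reads without a feature came to 0.811 to 2.89% of gene counts and ambiguous reads to 0.382 to 0.807%. The libraries of a group differed by more than sampling noise (chi-square per degree of freedom 3.636 to 20.08), so none was treated as a copy.

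The members and all lists were chosen with earlier results of these data known. All 10 members are described in every comparison; other pathway genes are named by up to 4 with the smallest p per direction, and the most-like genes by the highest Pearson r over 18 group means less the organ mean. Identity was computed on coding sequences, since no protein table was at hand. Sequences and lengths are from RefSeq TAIR10.1; of 20823 genes in both annotations, 98.0% had both ends within 1000 bases of the authors' ends. On simulated counts of the 180 min hypocotyl comparison (20019 genes), 78% of genes changed 2-fold and 93% of those changed 4-fold were recovered; for organs in high R/FR (18987 genes) these were 87% and 96%. Each simulation changed 100 genes by each fold and left all others equal. In the data 63.8% and 80.2% of genes were called in these comparisons, so the recovery rates may not hold there. Alternatives were RLE scaling, plain totals, DESeq2 1.42.0, no count filter, the organ's libraries alone, replicate blocks, a 36-library fit for organs, transcript length and each library left out.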

Additional observations from a re-analysis of the deposited data

Results flagged for a closer look

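For 24 results a test of the difference itself found the response of a cuticle gene to be unlike in the 2 organs; each value is the hypocotyl response minus the cotyledon response on the log2 scale, from edgeR, and no explanation was tested. At 90 min of low R/FR against high R/FR the differences were 2.03 for KCS1, 1.29 for KCS20, 1.03 for KCS5, 0.80 for CER2, 0.65 for CER3, -0.71 for KCS6 and -2.17 for KCS2. Their adjusted p-values ran from 5.78e-08 (KCS20) to 0.00146 (KCS2), and KCS2 missed the threshold without low R/FR cotyledon library 1 (-1.79, adjusted p = 0.0534).

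At 180 min the differences were 3.74 for CER1, 2.35 for KCS1, 1.81 for KCS5, 1.75 for KCS20, 1.17 for CER3, 0.92 for KCS10, 0.81 for KCR1, 0.77 for CER2, -0.67 for KCS6 and -1.81 for KCS2. KCS1 was at 484 and 487.5 CPM in low R/FR hypocotyls, against 145 and 169.5 CPM in high R/FR, while it was at 164 and 175 CPM in low R/FR cotyledons, against 279 and 280 CPM in high R/FR. The CER1 value rests on 1 read in the high R/FR hypocotyl libraries; it was 2.88 without high R/FR hypocotyl library 3, 2.71 without high R/FR cotyledon library 2 and 5.75 without high R/FR hypocotyl library 2.

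Over time in high R/FR, 180 min against 0 min, the organs differed for KCS1 (1.48), KCS5 (0.90), CER3 (0.55), KCS20 (0.45), KCR1 (-0.56), KCS6 (-1.24) and KCS2 (-2.17). The KCS2 and KCS20 calls each ended without either of 2 libraries (adjusted p 0.0688 and 0.0708 for KCS2, 0.0959 and 0.0705 for KCS20), the KCS20 difference was 0.69 without high R/FR hypocotyl library 3 at 180 min, and the KCR1 difference was -0.37 without hypocotyl library 2 at 0 min.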

How the results depend on the processing

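Groups of 2 libraries limit all of these comparisons, and so do the few reads of CER1 in hypocotyls and of KCS2 in cotyledons. With plain count totals the organ difference of KCS10 became 0.17 in high R/FR and 0.17 in low R/FR, and that of KCS20 in high R/FR became 0.029; plain totals moved the median of all genes between organs to 0.65 in high R/FR and 0.67 in low R/FR. The share of called genes that were higher was 41.1% with TMM and 57.9% with plain totals for cotyledon light at 180 min, 57.3% and 46.9% for the light interaction at 90 min, 41.6% and 59.3% for the time interaction, 50.9% and 80.2% for organs in high R/FR, and 54.8% and 81.3% for organs in low R/FR; the cause beyond scaling was not tested.

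Of all genes, those called for hypocotyl light at 15 min numbered 36, and 74 without a count filter, 94 in DESeq2 and 14 from hypocotyl libraries alone; for cotyledon light at 15 min 44, and 67 in DESeq2 and 70 with the replicate block; for the 15 min interaction 3, and 7 without a filter. Among the 10 cuticle genes, hypocotyl light at 45 min gave 0, and 1 with the replicate block (KCS20, -0.29, adjusted p = 0.0322); cotyledon light at 45 min gave 1, and 2 without a filter or from cotyledon libraries alone (CER1 added). Results for single genes and counts of other pathway genes kept their call, direction and approximate size in 277 of 278 cases under RLE, 276 without a filter, 274 in DESeq2, 264 under plain totals and 263 with the replicate block, in 157 of 162 from the organ's libraries alone and in 31 of 37 in the 36-library organ fit. With 1 library left out, 1810 such cases held, 71 lost their call, 4 gained one and 59 moved otherwise.

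With each library left out in turn, all genes called ran from 6 to 456 (hypocotyl light, 15 min), 359 to 591 (45 min, 666 with all libraries), 25 to 48 (cotyledon light, 15 min), 432 to 2117 (45 min, 728 with all), 2587 to 2681 (180 min, 3929 with all), 0 to 54 (interaction, 15 min) and 86 to 474 (45 min, 140 with all). Cuticle genes called ran from 0 to 1 for cotyledon light at 45 min and from 3 to 5 at 90 min (5 with all). They stayed at 8 to 9 for hypocotyl light at 180 min and 9 to 10 for its interaction.

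The labels do not say that replicate numbers pair samples, and not every pair's correlation was over 0.1: same-numbered libraries of the 2 lights had correlated deviations of -0.165 to 0.0733 over 13 pairs, and those of the 2 organs 0.0538 to 0.14 over 16 pairs, all positive and 10 of them over 0.1; whether same-numbered organs came from the same seedlings is not stated. The deviations of the 2 libraries of a group mirror each other. Where both numbers matched between groups, the 2 pairs gave the same value, so these counts of pairs hold repeated values. With the replicate block, 2 cuticle genes were higher and 3 lower in low R/FR hypocotyls than in cotyledons, against 4 and 3 without it. The organ difference was 0.21 for KCR1 (adjusted p = 0.16) and 0.61 for CER3 (adjusted p = 0.0504).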

Other observations

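Outside the 10 members, the direction in which genes of wax and cutin formation differed between organs depended on the scaling. In high R/FR with TMM scaling, 45 of the 61 listed genes were tested, of which 3 were higher and 31 lower in hypocotyls than in cotyledons, against 40.8% and 39.4% of all genes, and their median log2 difference was -0.56, beside 0.01 over all genes. With plain count totals 21 were higher and 18 lower, and the median was 0.076, beside 0.65 over all genes. The values that follow are with TMM, and CER26, CER26-LIKE, LTPG1 and KCS19 kept their direction with plain totals. CER26 and CER26-LIKE, relatives of CER2 that act in elongation, were at -3.29 and -2.52 on the log2 scale, and LTPG1, a lipid transfer protein of wax export, at -1.84. KCS19 was the elongation gene that was higher in hypocotyls (1.21). Of the 5 epidermal genes, ATML1 (-0.83), PDF2 (-0.48), PDF1 (-0.35) and HDG2 (-1.13) were also lower and HDG1 (0.27) higher in hypocotyls with TMM, while PDF2 (0.154) and PDF1 (0.287) were higher with plain totals, and their part in the result was not tested.

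Over 180 min of high R/FR, 16 of 48 such genes had risen and 14 had fallen in hypocotyls, against 22% and 22.9% of all genes, and 15 had risen and 14 had fallen in cotyledons, against 32.1% and 23.5%. DEWAX rose by 1.96 in hypocotyls on the log2 scale and KCS16 by 1.86, while ABCG12 fell by 0.86 and PAS2 by 0.72. In cotyledons KCS12 rose by 3.36 and WRI4, a regulator of wax genes, by 1.82, while the cutin gene HTH fell by 1.02 and CER7, a subunit of the RNA exosome that acts on wax gene expression, by 0.88. In hypocotyls DEWAX had 55.4 and 59.2 CPM at 180 min of high R/FR, against 12.8 and 16.5 CPM at 0 min, and the low R/FR libraries had 11.8 and 13.7 CPM at 180 min.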
